A study of Rattus norvegicus with 12 samples.

Results

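Antioxidant genes, targets of the transcription factor NRF2 and some of its regulators were followed in rings of rat aorta. In this culture model vessel sprouts grow from a piece of artery set in a gel. The list holds 36 genes that were looked up by symbol in the annotation of the array, and 35 of them were measured, out of 14324 genes in all. The pentose phosphate pathway gene Pgd is not analysed here. Where a gene had several probe sets, the brightest on average was used, which concerned 5 members.

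The rings came from male Fisher 344 rats aged 1 to 2 months and were kept in serum-free medium, and RNA was taken on day 2. The 4 groups were fibrin TNF (fibrin gel with 10 ng/ml recombinant rat TNF-alpha, an inflammatory cytokine), fibrin control (fibrin gel, untreated), collagen TNF (collagen gel with the same dose of TNF-alpha) and collagen control (collagen gel, untreated), with 3 arrays each. Each sample pooled 4 to 6 ring cultures, so a value is a mean over many cells and several rings, and the labels call the samples of a group biological replicates without saying whether they came from different animals, so the p-values refer only to how far these samples vary. All 4 groups share the strain, the medium and the ring preparation, no group was left uncultured, and the tissue label of the fibrin samples also reads collagen gels, so the groups were taken from the sample titles.

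NRF2 (gene Nfe2l2) is normally held in the cytoplasm and sent to degradation by its sensor KEAP1. Oxidants and electrophiles modify KEAP1, NRF2 then enters the nucleus, pairs with small MAF proteins and binds the antioxidant response element of genes for glutathione and thioredoxin enzymes, NADPH supply, quinone reduction, heme and iron handling and conjugation of electrophiles. BACH1 competes with NRF2 at many of these elements. In the vessel wall these enzymes limit oxidant damage to endothelial and smooth muscle cells, and part of the list, such as the extracellular enzymes Gpx3 and Sod3, is also governed by other factors.

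Levels are deposited array signals read as log2 values, and they ran from 1.44 to 14.07 over 27342 probe sets. The median of an array lay between 5.89 and 5.98, and the correlation of an array with the others of its group was 0.9969 to 0.9981. A difference was counted as a change where limma, fitted over all 14324 genes, gave a two-sided Benjamini-Hochberg adjusted p below 0.05. Differences are given on the log2 scale with the standard error (SE) of that fit. Levels of different probe sets cannot be set against each other, so each gene is compared only with itself. The samples were whole cultures, so fewer cells of a type and less RNA per cell cannot be told apart.

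Markers of the aortic cell types were read on the same arrays. Smooth muscle genes were present (6 of 7 markers measured, with group means of 6.49 to 10.79), as were endothelial genes (4 of 7 measured, group means of 5.19 to 10.48) and fibroblast genes (6 of 6, group means of 7.55 to 13.55). The endothelial marker Emcn was dim, with group means of 5.19 to 5.59, below the median of every array. The 6 neutrophil markers had group means of 5.44 or lower, below the median of every array, and 1 was higher and 0 lower in fibrin control than in collagen control. Macrophage markers moved with the gel: of 8 markers 0 were higher and 6 lower in fibrin than in collagen, both with and without TNF. Their summed level (log2 of the sum of linear signals) was 12.27 to 12.39 in fibrin TNF and 12.69 to 13.01 in collagen TNF, and 12.20 to 12.42 in fibrin control and 12.64 to 12.86 in collagen control. Of the 6 smooth muscle markers, 0 rose and 3 fell with TNF in collagen, and 0 were higher and 4 lower in fibrin control than in collagen control, while 0 of 6 changed with TNF in fibrin and 0 of 6 differed between fibrin TNF and collagen TNF. The summed smooth muscle level was 11.06 to 11.26 in fibrin TNF, 11.13 to 11.53 in fibrin control, 11.24 to 11.39 in collagen TNF and 11.61 to 11.96 in collagen control. Summed fibroblast levels were 14.64 to 14.79, 14.88 to 14.93, 14.86 to 14.96 and 14.87 to 14.96, and summed endothelial levels 11.16 to 11.42, 11.20 to 11.56, 11.29 to 11.46 and 11.26 to 11.63, in the same order of groups. Of 6 fibroblast markers 1 rose and 1 fell with TNF in collagen, 0 rose and 1 fell with TNF in fibrin, and in fibrin 0 were higher and 2 lower with TNF and 0 higher and 1 lower without it, while 0 of 4 endothelial markers passed a test. Of the 8 macrophage markers 1 rose and 0 fell with TNF in each gel. Over all genes 3.13% changed with TNF in fibrin and 6.37% in collagen. Between the gels 8.19% of all genes differed with TNF and 10.5% without it. The part of these cell types in the differences given here was not tested.

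The genes that rose with TNF in fibrin were 2 of 4 for glutathione synthesis and recycling (Slc7a11, Gsr), 2 of 5 of the thioredoxin system (Txnrd1, Srxn1), 2 of 3 for NADPH supply (Taldo1, Tkt), 2 of 6 for conjugation and efflux (Gstm1, Gstp1), 1 of 2 quinone and carbonyl reductases (Nqo1) and 1 of 4 for heme and iron (Blvrb). With TNF in fibrin, 10 of 35 members rose and 1 fell (31.4%), against 3.13% of all genes changed in either direction, 1.65% higher and 1.47% lower. With TNF in collagen, 5 rose and 2 fell (20%), against 6.37% of all genes, 3.27% higher and 3.1% lower. The median member difference was 0.19 in fibrin and -0.02 in collagen, beside medians of 0.01 and 0 over all genes. These TNF effects share no array. Without collagen TNF replicate 3, 4 members changed in collagen in place of 7, and 617 of all genes in place of 912.

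Some of these genes also differed between the gels. With TNF in both gels, 13 of 35 members were higher and 1 lower in fibrin (40%), against 8.19% of all genes changed, 4.55% higher and 3.64% lower. Without TNF, 8 were higher and 1 lower (25.7%), against 10.5% of all genes, 5.35% higher and 5.19% lower. Median member differences were 0.21 with TNF and 0.02 without it, beside 0 and -0.01 over all genes. The split over all genes depended on the scaling: 652 were higher and 521 lower with TNF, but 880 and 387 after median centring, and 767 and 743 without TNF, but 1217 and 474 after median centring. The member counts after median centring were 15 higher and 1 lower with TNF, and 8 higher and 1 lower without it. Without the third of genes of lowest mean, 16 members and 1454 of 9550 genes differed with TNF. Without TNF it was 10 members and 1803 genes. The group mean was highest in fibrin TNF for 30 of 35 members, and the same held for 30.4% of all genes. Of the 35 members, 17 changed in at least 1 of the 4 comparisons between a pair of groups, against 16.3% of all 14324 genes (2328), and 18 passed in none of these nor in the difference of TNF effects.

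**Figure D1:**
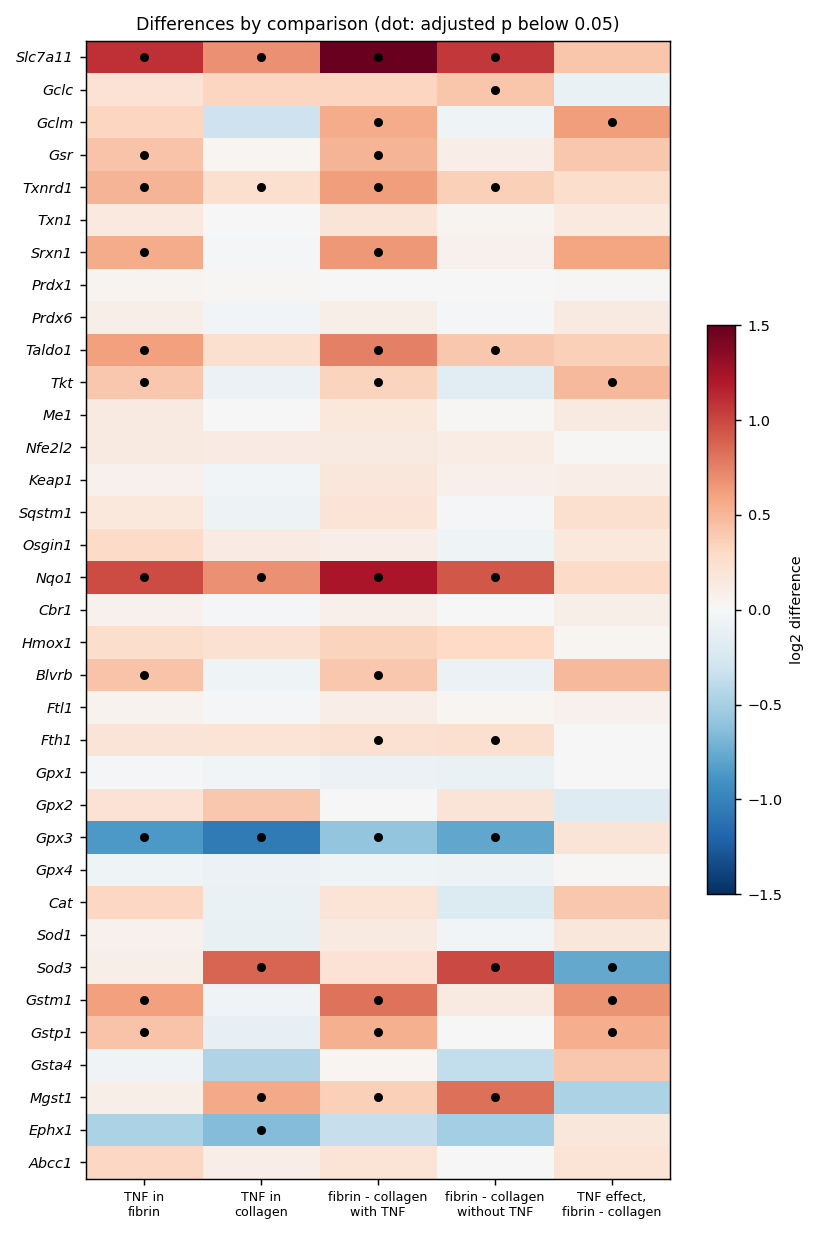
Log2 differences of the 35 measured members (rows, ordered by role) in 5 comparisons (columns): TNF minus control in fibrin and in collagen, fibrin minus collagen with and without TNF, and the TNF effect in fibrin minus that in collagen. Red is higher and blue lower, and a black dot marks a limma adjusted p below 0.05. Slc7a11, Txnrd1 and Nqo1 are red and dotted in all 4 comparisons of 2 groups, Gpx3 is blue and dotted in all 4, and Gstm1, Gstp1 and Tkt are dotted in the fibrin TNF columns and in the last one.

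Among the genes of glutathione synthesis and recycling, Slc7a11 rose with TNF in both gels. It is the cystine importer that feeds glutathione synthesis. It had log2 levels of 10.40, 10.25 and 10.59 in fibrin TNF, 9.32, 9.37 and 9.25 in fibrin control, 8.92, 8.90 and 8.99 in collagen TNF, and 8.34, 8.11 and 8.30 in collagen control. The 4 groups did not overlap and stood in that order. With TNF it rose 2.14-fold in fibrin (log2 difference 1.10 ± 0.09 SE, adjusted p = 7.55e-05) and 1.6-fold in collagen (0.68 ± 0.09, adjusted p = 0.000483). It was 2.79-fold higher in fibrin than in collagen with TNF (1.48 ± 0.09, adjusted p = 1.57e-06) and 2.09-fold higher without it (1.06 ± 0.09, adjusted p = 6.23e-06). The TNF effect was 0.42 larger in fibrin (95% confidence interval 0.14 to 0.69), which did not pass the test (adjusted p = 0.156).

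The subunits of glutamate-cysteine ligase, the rate-limiting enzyme of glutathione synthesis, did not move alike. The catalytic subunit gene Gclc had levels of 10.92, 10.93 and 10.98 in fibrin TNF, 10.65, 10.74 and 10.76 in fibrin control, 10.40, 10.76 and 10.71 in collagen TNF, and 10.29, 10.40 and 10.20 in collagen control. It was higher in fibrin control than in collagen control (0.42 ± 0.09 SE, adjusted p = 0.0103), while its differences with TNF were 0.22 in fibrin and 0.32 in collagen (adjusted p = 0.254 and 0.0565). Between fibrin TNF and collagen TNF it differed by 0.32 (adjusted p = 0.0517, or 0.036 with the replicate number as a block).

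For the modifier subunit gene Gclm the TNF effect depended on the gel. Levels were 8.68, 8.39 and 8.44 in fibrin TNF, 8.21, 8.18 and 8.16 in fibrin control, 7.90, 7.92 and 8.01 in collagen TNF, and 8.34, 8.27 and 8.12 in collagen control. The TNF arrays thus lay above the control arrays in fibrin and below them in collagen. Neither TNF effect passed by itself (0.32 ± 0.09 SE in fibrin, adjusted p = 0.0684, and -0.31 ± 0.09 in collagen, adjusted p = 0.0538). Their difference did (0.63 ± 0.12, adjusted p = 0.0254), and Gclm was 1.48-fold higher in fibrin TNF than in collagen TNF (0.56 ± 0.09, adjusted p = 0.00113). The difference missed the threshold with the replicate number as a block (adjusted p = 0.0525) and when 1 of 6 arrays was left out (adjusted p = 0.0561 to 0.0719), which were collagen control replicates 1 and 2, collagen TNF replicates 1 and 2, and fibrin control replicates 2 and 3.

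Gsr, the reductase that regenerates glutathione with NADPH, had levels of 10.23, 10.02 and 10.20 in fibrin TNF, against 9.76, 9.64 and 9.74 in fibrin control, 9.62, 9.60 and 9.71 in collagen TNF, and 9.63, 9.61 and 9.61 in collagen control. The fibrin TNF arrays stood above the other 9. It rose 1.35-fold with TNF in fibrin (0.43 ± 0.07 SE, adjusted p = 0.0045), was higher in fibrin TNF than in collagen TNF (0.51 ± 0.07, adjusted p = 0.000572), and differed by 0.03 with TNF in collagen (95% confidence interval -0.12 to 0.18, adjusted p = 0.902). The TNF effect was 0.41 ± 0.10 larger in fibrin, which did not pass (adjusted p = 0.0795). That difference passed without the third of genes of lowest mean (0.0354), with a trended and robust prior (0.0233) and without fibrin TNF replicate 2 (0.0297).

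**Figure D2:**
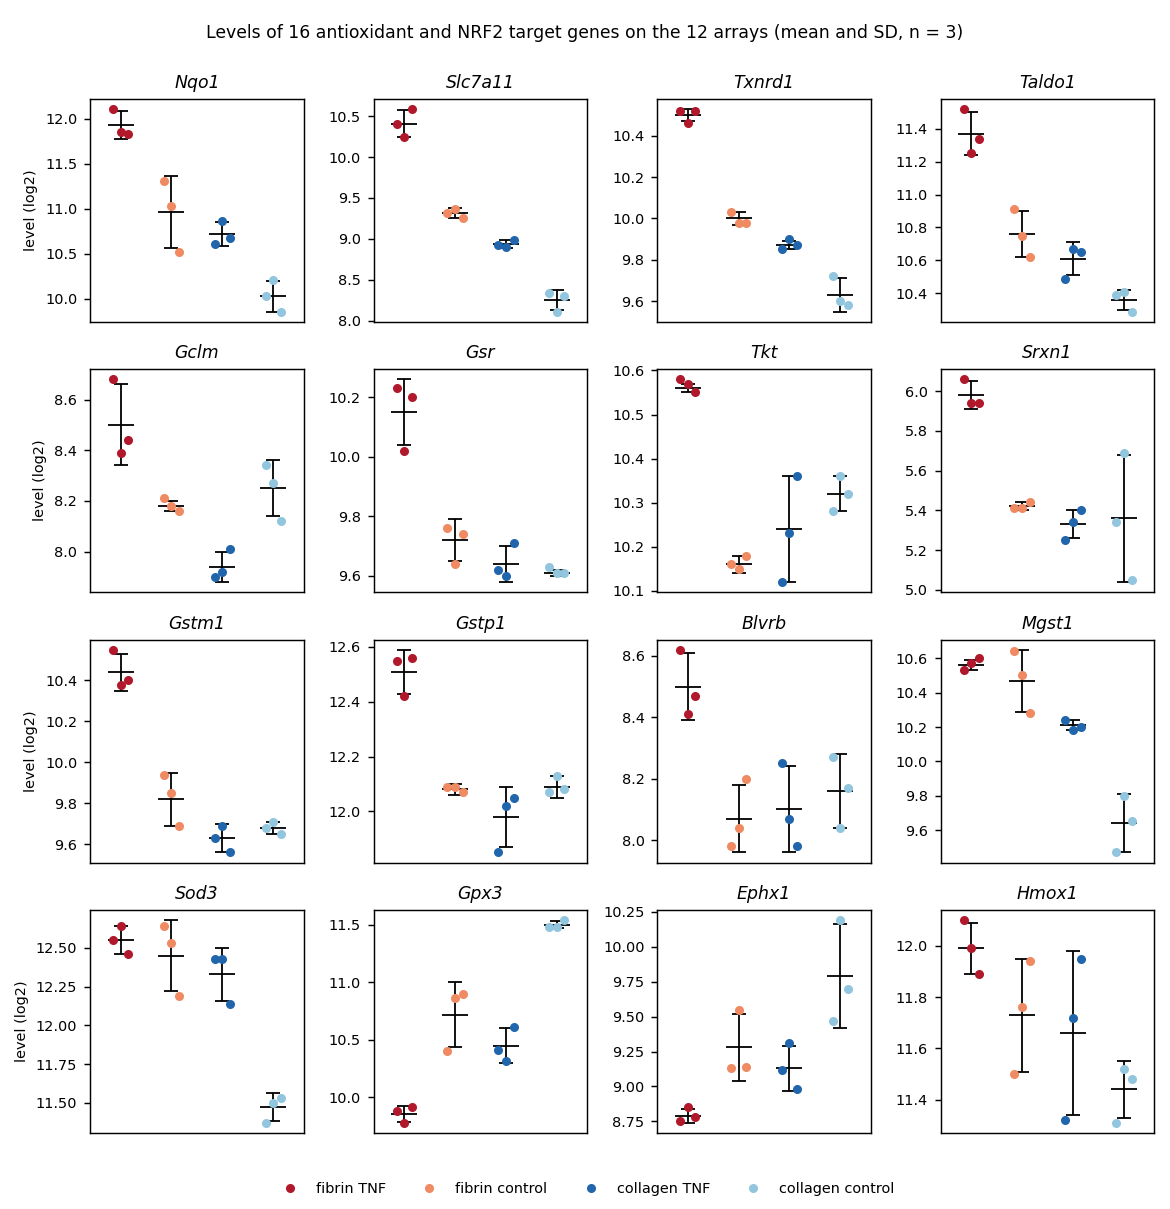
Log2 level (vertical axis, scaled per gene and not starting at 0) of 16 members on each array, with fibrin TNF, fibrin control, collagen TNF and collagen control from left to right. Points are single arrays, and black lines are the group mean and SD (n = 3). Slc7a11, Nqo1 and Txnrd1 step down from fibrin TNF to collagen control, the fibrin TNF points of Gsr, Tkt, Gstm1, Gstp1, Srxn1 and Blvrb stand above all others, Sod3 is low in collagen control alone, and Gpx3 is highest there.

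Promoter sequences are shown for 4 members that hold the core of the antioxidant response element, of which Gclm and Gstp1 had unlike TNF effects in the gels and Me1 and Prdx1 passed no test. RefSeq promoters of build GRCr8 were matched by symbol for 29 of the 35 members, and the 250 bases before the gene start were searched on both strands for the core TGACNNNGC and for the AP-1 motif TGANTCA, which can overlap it. The core was found in 5 of 29 member promoters (17.2%), in 11.6% of the 11823 promoters of genes on the array and in 10.2% of all 27457 promoters. The AP-1 motif was found in 5 of 29 (17.2%), in 5.49% of those on the array and in 6.36% of all, and in 3 members it overlapped the core. Capitals mark the core, which lies on the opposite strand in Gclm and Prdx1, so that its complement is read there.
Gclm (chr2:213031885-213032134, plus strand): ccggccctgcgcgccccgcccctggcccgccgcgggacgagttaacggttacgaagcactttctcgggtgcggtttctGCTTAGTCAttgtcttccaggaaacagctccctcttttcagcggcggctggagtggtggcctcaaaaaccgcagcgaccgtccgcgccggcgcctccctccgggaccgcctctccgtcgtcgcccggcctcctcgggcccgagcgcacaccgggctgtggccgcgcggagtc
Gstp1 (chr1:210769706-210769955, minus strand): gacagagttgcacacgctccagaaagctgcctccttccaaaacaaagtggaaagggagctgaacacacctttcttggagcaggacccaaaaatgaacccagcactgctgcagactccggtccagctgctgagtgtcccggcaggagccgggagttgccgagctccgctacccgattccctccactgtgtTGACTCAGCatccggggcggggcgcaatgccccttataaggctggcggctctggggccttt
Me1 (chr8:96540245-96540494, minus strand): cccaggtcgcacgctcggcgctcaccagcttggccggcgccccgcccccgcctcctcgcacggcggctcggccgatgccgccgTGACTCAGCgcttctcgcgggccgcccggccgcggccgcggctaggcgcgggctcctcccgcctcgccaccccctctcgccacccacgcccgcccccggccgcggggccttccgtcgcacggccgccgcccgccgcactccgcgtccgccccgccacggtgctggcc
Prdx1 (chr5:135383656-135383905, plus strand): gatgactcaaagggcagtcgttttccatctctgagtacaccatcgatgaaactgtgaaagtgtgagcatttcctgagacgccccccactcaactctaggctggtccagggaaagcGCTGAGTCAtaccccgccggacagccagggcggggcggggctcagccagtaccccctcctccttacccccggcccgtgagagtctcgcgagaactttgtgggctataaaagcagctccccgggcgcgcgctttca
In Gclm the core (TGACTAAGC on the opposite strand) lies 172 to 164 bases before the start and does not overlap AP-1 letters. In Gstp1 (61 to 53 bases before the start), Me1 (167 to 159) and Prdx1 (135 to 127, opposite strand) the core reads TGACTCAGC and holds the AP-1 motif TGACTCA. Prdx1 holds a further AP-1 motif 248 to 242 bases before the start. The fifth promoter with the core is that of Gpx2, and Mgst1 and Srxn1 hold an AP-1 motif without the core. Me1 and Prdx1 carry the same 9 letters as Gstp1 and had log2 TNF effects of 0.13 and 0.04 in fibrin, against 0.43 for Gstp1. The part of these letters in the TNF effects was not tested. The window of Nqo1, Slc7a11 and Txnrd1 held no match, which says only that these letters are not in these 250 bases.

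In the thioredoxin system Txnrd1 and Srxn1 rose with TNF in fibrin, and Txn1, Prdx1 and Prdx6 passed no test. Txnrd1 encodes the cytosolic reductase that recharges thioredoxin. It had levels of 10.52, 10.46 and 10.52 in fibrin TNF, 10.03, 9.98 and 9.98 in fibrin control, 9.85, 9.90 and 9.87 in collagen TNF, and 9.72, 9.60 and 9.58 in collagen control. As with Slc7a11, the 4 groups were separate and in the same order. It rose with TNF in fibrin (0.51 ± 0.06 SE, adjusted p = 0.000743) and in collagen (0.24 ± 0.06, adjusted p = 0.0338), and it was higher in fibrin with TNF (0.63 ± 0.06, adjusted p = 3.28e-05) and without it (0.36 ± 0.06, adjusted p = 0.00176). The rise in collagen was lost with the replicate number as a block (adjusted p = 0.0576), with the collagen arrays alone (0.0799) and without any 1 of the 6 collagen arrays but control replicate 1 (0.0817 to 0.132).

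Srxn1 encodes sulfiredoxin, which repairs over-oxidised peroxiredoxins. Its level was 6.06, 5.94 and 5.94 in fibrin TNF, against 5.41, 5.41 and 5.44 in fibrin control, 5.25, 5.34 and 5.40 in collagen TNF, and 5.34, 5.69 and 5.05 in collagen control. The fibrin TNF arrays stood above the other 9, on a probe set whose mean ranked at the 34.8th percentile of genes. It rose 1.47-fold with TNF in fibrin (0.56 ± 0.12 SE, adjusted p = 0.0271, but 0.0623 to 0.109 without any 1 of the 6 fibrin arrays other than TNF replicate 2). It was higher in fibrin TNF than in collagen TNF (0.65 ± 0.12, adjusted p = 0.00496). With TNF in collagen the difference was -0.03 ± 0.12 (adjusted p = 0.945), and the gap between the TNF effects did not pass (0.59 ± 0.17, adjusted p = 0.143, or 0.03 without collagen control replicate 3).

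Thioredoxin itself (Txn1) is the protein that Txnrd1 recharges, and the peroxiredoxins Prdx1 and Prdx6 reduce peroxides. Txn1 had group means of 12.75 ± 0.05 in fibrin TNF, 12.60 ± 0.09 in fibrin control, 12.57 ± 0.05 in collagen TNF and 12.56 ± 0.07 in collagen control (SD, n = 3). Prdx1 lay between 11.79 and 12.03 on all 12 arrays, and its TNF effect was 0.04 in fibrin (95% confidence interval -0.11 to 0.20) and 0.02 in collagen (-0.14 to 0.17). For Prdx6 the TNF effects were 0.09 (-0.14 to 0.31) and -0.04 (-0.27 to 0.19).

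Of the 3 measured genes grouped under NADPH supply, Taldo1 and Tkt rose with TNF in fibrin and Me1 passed no test. Transaldolase and transketolase belong to the non-oxidative branch of the pentose phosphate pathway, which makes no NADPH itself and is linked to the branch that does, while malic enzyme makes NADPH directly. Taldo1 (transaldolase) had levels of 11.52, 11.25 and 11.34 in fibrin TNF, 10.91, 10.75 and 10.62 in fibrin control, 10.49, 10.67 and 10.65 in collagen TNF, and 10.39, 10.41 and 10.29 in collagen control. It rose 1.52-fold with TNF in fibrin (0.61 ± 0.09 SE, adjusted p = 0.00307) and was higher in fibrin than in collagen with TNF (0.76 ± 0.09, adjusted p = 0.000171) and without it (0.40 ± 0.09, adjusted p = 0.0135). With TNF in collagen the arrays did not overlap either, but the difference of 0.24 ± 0.09 did not pass (adjusted p = 0.159). The gap without TNF missed the threshold without collagen control replicate 3 (adjusted p = 0.0562) or fibrin control replicate 1 (0.0612).

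Tkt (transketolase) had levels of 10.58, 10.57 and 10.55 in fibrin TNF, 10.16, 10.15 and 10.18 in fibrin control, 10.12, 10.23 and 10.36 in collagen TNF, and 10.28, 10.36 and 10.32 in collagen control. Among the 4 groups it was fibrin TNF that stood apart. It rose 1.32-fold with TNF in fibrin (0.40 ± 0.07 SE, adjusted p = 0.00549), the TNF effect was larger in fibrin than in collagen (0.49 ± 0.10, adjusted p = 0.0269), and it was higher in fibrin TNF than in collagen TNF (0.33 ± 0.07, adjusted p = 0.00935, but 0.0517 with those groups alone). The difference of TNF effects missed the threshold without any 1 of 9 arrays (adjusted p = 0.0534 to 0.0726), those other than collagen control replicate 1, collagen TNF replicate 3 and fibrin TNF replicate 2. Me1, the cytosolic malic enzyme, differed by 0.13 (95% confidence interval -0.05 to 0.31) with TNF in fibrin and by 0 (-0.18 to 0.17) in collagen.

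The quinone reductase Nqo1, the gene most used to read NRF2 activity, followed both the cytokine and the gel. Its levels were 12.11, 11.85 and 11.83 in fibrin TNF, 11.31, 11.03 and 10.52 in fibrin control, 10.61, 10.86 and 10.68 in collagen TNF, and 10.03, 10.21 and 9.86 in collagen control. Fibrin control and collagen TNF overlapped, and the other groups were separate. It rose 1.97-fold with TNF in fibrin (0.98 ± 0.17 SE, adjusted p = 0.00621) and 1.61-fold in collagen (0.69 ± 0.17, adjusted p = 0.0281). It was 2.32-fold higher in fibrin than in collagen with TNF (1.22 ± 0.17, adjusted p = 0.000521) and 1.9-fold without it (0.93 ± 0.17, adjusted p = 0.00296). The rise in collagen missed the threshold without any 1 of the 6 collagen arrays but control replicate 2 (adjusted p = 0.055 to 0.115). Cbr1, a carbonyl reductase, passed no test, with TNF effects of 0.06 (95% confidence interval -0.15 to 0.26) in fibrin and -0.03 (-0.23 to 0.17) in collagen.

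Among heme and iron genes the inducible heme oxygenase Hmox1 did not pass any test. It had levels of 12.10, 11.99 and 11.89 in fibrin TNF, 11.50, 11.76 and 11.94 in fibrin control, 11.32, 11.72 and 11.95 in collagen TNF, and 11.31, 11.52 and 11.48 in collagen control. The groups overlapped, and the spread within collagen TNF alone was 0.32 (SD). Its TNF effect was 0.26 ± 0.15 SE in fibrin (95% confidence interval -0.06 to 0.58) and 0.23 ± 0.15 in collagen (-0.09 to 0.54).

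Blvrb, which reduces the biliverdin that heme breakdown yields, had levels of 8.62, 8.41 and 8.47 in fibrin TNF, against 7.98, 8.04 and 8.20 in fibrin control, 8.25, 8.07 and 7.98 in collagen TNF, and 8.27, 8.04 and 8.17 in collagen control. The fibrin TNF arrays lay above the other 9. It rose with TNF in fibrin (0.43 ± 0.10 SE, adjusted p = 0.0284) and was higher in fibrin TNF than in collagen TNF (0.40 ± 0.10, adjusted p = 0.0209). The rise missed the threshold without fibrin control replicate 1 or 2 or fibrin TNF replicate 1 or 3 (adjusted p = 0.0744 to 0.119), and the gap between gels without collagen TNF replicate 2 or 3 or fibrin TNF replicate 1 (0.0731 to 0.0971). The rise was also lost with array weights (0.0677) and with the fibrin arrays alone (0.0711). Blvrb is also abundant in red cells. The 5 measured erythroid markers had group means of 6.93 or lower and passed no test, but their summed level was 7.18 to 8.79 in fibrin TNF, against 7.09 to 7.25 in fibrin control, 7.15 to 7.29 in collagen TNF and 7.01 to 7.51 in collagen control. The beta-globin gene Hbb was at 8.42 in fibrin TNF replicate 3 and at 5.70 to 6.63 on the other arrays, and the Blvrb level of that replicate, 8.47, lay between those of its group mates. Its part in the result was not tested.

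The ferritin chains, which store iron, were both near the top of the signal range. The heavy chain gene Fth1 had levels of 13.63, 13.53 and 13.61 in fibrin TNF, 13.43, 13.39 and 13.37 in fibrin control, 13.36, 13.34 and 13.39 in collagen TNF, and 13.16, 13.17 and 13.14 in collagen control. It was higher in fibrin with TNF (0.23 ± 0.06 SE, adjusted p = 0.028) and without it (0.24 ± 0.06, adjusted p = 0.0159), while TNF effects of 0.19 in fibrin and 0.21 in collagen, also without overlap, did not pass (adjusted p = 0.104 and 0.0514). The TNF effect in collagen passed in 4 alternative fits (adjusted p = 0.00164 to 0.0497) and that in fibrin in 2 (0.00568 and 0.0455). Both passed without the third of genes of lowest mean and with a trended and robust prior. The gap with TNF missed the threshold without any 1 of the 6 arrays but fibrin TNF replicate 2 (adjusted p = 0.0712 to 0.0964), and that without TNF missed it without collagen control replicate 3 (0.0573) or fibrin control replicate 1 (0.0598). With the compared groups alone both gaps were lost (0.0979 with TNF and 0.055 without it). The light chain gene Ftl1 lay between 13.47 and 13.62 on all arrays and passed no test. Ferritin genes have near-identical processed copies, so their probe sets are uncertain as single genes, and the 6 probe sets named Ftl1 gave TNF effects of 0.04 to 0.10 in fibrin and -0.06 to -0.02 in collagen.

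Of the 7 enzymes that remove superoxide and peroxides, Gpx3 and Sod3 passed a test, and they moved in opposite directions with TNF in collagen. Gpx3, the secreted glutathione peroxidase, had levels of 9.88, 9.78 and 9.92 in fibrin TNF, 10.40, 10.86 and 10.90 in fibrin control, 10.41, 10.32 and 10.61 in collagen TNF, and 11.48, 11.48 and 11.54 in collagen control. Its lowest arrays were those of fibrin TNF and its highest those of collagen control. It fell 1.82-fold with TNF in fibrin (-0.86 ± 0.12 SE, adjusted p = 0.00167) and 2.08-fold in collagen (-1.06 ± 0.12, adjusted p = 0.000144). It was also lower in fibrin with TNF (-0.59 ± 0.12, adjusted p = 0.00822) and without it (-0.78 ± 0.12, adjusted p = 0.00085). Gpx3 was the 1 member that fell in all 4 comparisons of 2 groups. Adipocytes express Gpx3, and the summed level of 6 adipocyte markers, of which 0 passed a test, was 8.04 to 8.69 in fibrin TNF, 7.71 to 7.95 in fibrin control, 7.52 to 7.93 in collagen TNF and 7.80 to 8.95 in collagen control.

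Sod3, the extracellular superoxide dismutase made largely by vascular smooth muscle, was lowest in untreated collagen. Its levels were 12.55, 12.64 and 12.46 in fibrin TNF, 12.64, 12.53 and 12.19 in fibrin control, 12.43, 12.43 and 12.14 in collagen TNF, and 11.37, 11.50 and 11.53 in collagen control. It rose 1.82-fold with TNF in collagen (0.87 ± 0.12 SE, adjusted p = 0.00053) and was 1.98-fold higher in fibrin control than in collagen control (0.99 ± 0.12, adjusted p = 9.81e-05). With TNF in fibrin the difference was 0.09 (95% confidence interval -0.16 to 0.35, adjusted p = 0.768), and the TNF effect in fibrin minus that in collagen was -0.77 ± 0.16 (adjusted p = 0.0396). The level of fibrin control forms part of that last value, which missed the threshold without any 1 of 9 arrays (adjusted p = 0.0733 to 0.107), those other than collagen TNF replicate 3, fibrin control replicate 3 and fibrin TNF replicate 2. The difference of TNF effects also missed it with array weights (adjusted p = 0.0721). Smooth muscle markers moved the other way where they passed, as given above.

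The other 5 members of this kind passed no test. Sod1, the cytosolic dismutase, had TNF effects of 0.06 in fibrin (95% confidence interval -0.09 to 0.21) and -0.11 in collagen (-0.26 to 0.04). Gpx1 differed by -0.03 (-0.16 to 0.09) and -0.04 (-0.17 to 0.09), and Gpx4, which protects membrane lipids from peroxidation, by -0.07 (-0.24 to 0.10) and -0.09 (-0.26 to 0.08). Catalase (Cat) differed by 0.31 (0.01 to 0.61, adjusted p = 0.314) with TNF in fibrin and by -0.10 (-0.40 to 0.20) in collagen. The gastrointestinal peroxidase Gpx2 was the 1 member among the third of genes of lowest mean, and its TNF effect of 0.41 in collagen had an adjusted p of 0.123, or 0.0112 with the replicate number as a block.

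Of the genes for conjugation and efflux, the glutathione transferases Gstm1 and Gstp1 changed with TNF in fibrin and not measurably in collagen. Gstm1 had levels of 10.55, 10.38 and 10.40 in fibrin TNF, 9.94, 9.85 and 9.69 in fibrin control, 9.63, 9.69 and 9.56 in collagen TNF, and 9.68, 9.71 and 9.65 in collagen control. It rose 1.53-fold with TNF in fibrin (0.62 ± 0.08 SE, adjusted p = 0.000925), differed by -0.05 in collagen (95% confidence interval -0.22 to 0.11, adjusted p = 0.791), and the difference of the TNF effects passed (0.67 ± 0.11, adjusted p = 0.0105). With TNF it was 1.76-fold higher in fibrin (0.82 ± 0.08, adjusted p = 2.87e-05).

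Gstp1 had levels of 12.55, 12.42 and 12.56 in fibrin TNF, 12.09, 12.09 and 12.07 in fibrin control, 11.85, 12.02 and 12.05 in collagen TNF, and 12.07, 12.13 and 12.08 in collagen control. As for Gstm1, the fibrin TNF arrays stood above the other 9. It rose 1.34-fold with TNF in fibrin (0.43 ± 0.07 SE, adjusted p = 0.00458), was higher in fibrin TNF than in collagen TNF (0.53 ± 0.07, adjusted p = 0.000329), differed by -0.12 in collagen (95% confidence interval -0.27 to 0.03, adjusted p = 0.42), and the TNF effects differed (0.54 ± 0.10, adjusted p = 0.0179). The differences of TNF effects of Gstm1 and Gstp1 passed in every alternative fit run, with adjusted p of at most 0.0324 and 0.049. Transferase genes have close relatives, so both are uncertain as single genes.

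Mgst1, a membrane-bound transferase and peroxidase, was lowest in collagen control, as was Sod3. It had levels of 10.53, 10.57 and 10.60 in fibrin TNF, 10.64, 10.50 and 10.28 in fibrin control, 10.24, 10.18 and 10.20 in collagen TNF, and 9.47, 9.80 and 9.65 in collagen control. It rose with TNF in collagen (0.57 ± 0.10 SE, adjusted p = 0.00337) and was higher in fibrin control than in collagen control (0.83 ± 0.10, adjusted p = 1e-04), with a TNF effect of 0.09 in fibrin (95% confidence interval -0.12 to 0.30). The difference of TNF effects, -0.48 ± 0.14, did not pass (adjusted p = 0.139). The gap between the gels with TNF (0.36 ± 0.10, adjusted p = 0.0429) missed the threshold without any 1 of the 6 arrays (0.0829 to 0.121), after quantile normalization (0.0532) and with the replicate number as a block (0.0513).

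Ephx1, the microsomal epoxide hydrolase, moved the other way, with 8.75, 8.85 and 8.78 in fibrin TNF, 9.13, 9.55 and 9.14 in fibrin control, 9.12, 9.31 and 8.98 in collagen TNF, and 9.47, 10.19 and 9.70 in collagen control. The TNF arrays lay below the control arrays in both gels. It fell with TNF in collagen (-0.65 ± 0.16 SE, adjusted p = 0.0325), but the call was lost without collagen control replicate 2 (-0.45, adjusted p = 0.105) or 3, without collagen TNF replicate 1 or 3 (0.0699 to 0.118 over the 4 fits) and with the collagen arrays alone (0.0785). In fibrin the difference was -0.48 ± 0.16 (adjusted p = 0.157). Between fibrin control and collagen control it was -0.51 ± 0.16 (adjusted p = 0.0684, or 0.0113 with the replicate number as a block). The efflux pump gene Abcc1 (0.31 with TNF in fibrin, adjusted p = 0.0651, or 0.0395 without fibrin control replicate 2) and the transferase Gsta4 (-0.05 in fibrin and -0.45 in collagen) did not pass. With the mean of its 2 probe sets, Gsta4 fell with TNF in collagen (-0.47, adjusted p = 0.0152). It was then also lower in fibrin control than in collagen control (-0.41, adjusted p = 0.0196).

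**Figure D3:**
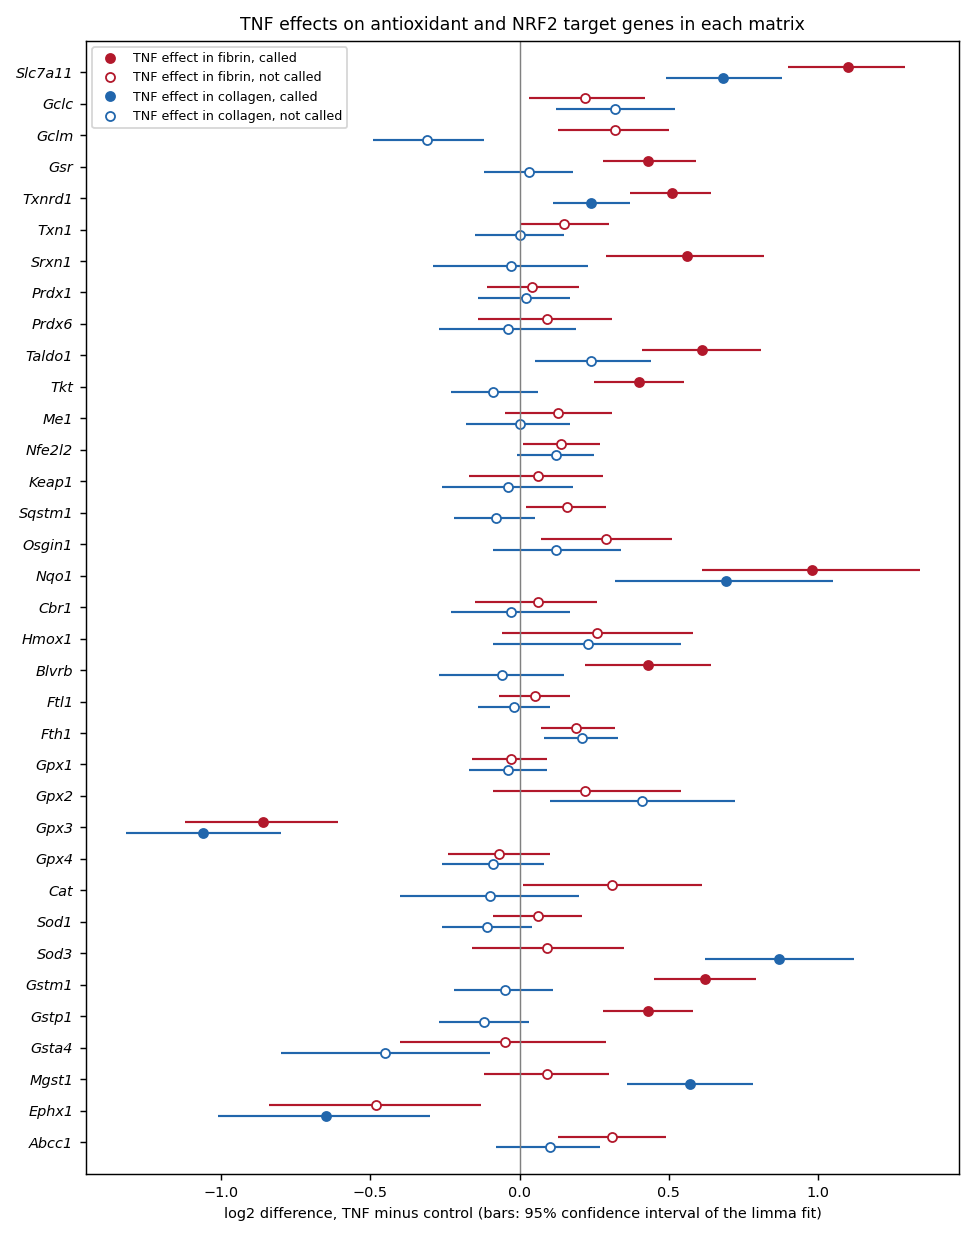
TNF effect (log2 difference, TNF minus control, horizontal axis) of each of the 35 members in fibrin (red) and in collagen (blue), with 95% confidence intervals of the limma fit. Filled points have an adjusted p below 0.05. Red points lie to the right of blue ones for Gclm, Tkt, Gstm1 and Gstp1, to the left for Sod3, and Nfe2l2, Keap1, Prdx1 and Gpx1 have intervals of both colours within 0.30 of 0.

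None of the 4 regulators among the members passed a test in the limma fit, with unadjusted p values of 0.0357 for Nfe2l2, 0.0304 for Sqstm1 and 0.0136 for Osgin1 with TNF in fibrin. Nfe2l2, which encodes NRF2, had levels of 11.24, 11.27 and 11.30 in fibrin TNF, 11.20, 11.12 and 11.08 in fibrin control, 11.16, 11.13 and 11.12 in collagen TNF, and 11.05, 10.97 and 11.03 in collagen control. The TNF arrays lay above the control arrays in each gel, but the differences of 0.14 ± 0.06 SE in fibrin and 0.12 ± 0.06 in collagen did not pass (adjusted p = 0.279 and 0.321). Its sensor Keap1 differed by 0.06 (95% confidence interval -0.17 to 0.28) and -0.04 (-0.26 to 0.18). Sqstm1, the autophagy adaptor p62 that binds KEAP1, differed by 0.21 ± 0.06 between fibrin TNF and collagen TNF (adjusted p = 0.0689), which passed after median centring (0.0363), without the third of genes of lowest mean (0.0312) and with a trended and robust prior (0.0108). Osgin1, an oxidative stress response gene on a dim probe set (34.6th percentile), had TNF effects of 0.29 in fibrin and 0.12 in collagen that did not pass (adjusted p = 0.172 and 0.58).

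Of 12 other regulators, all measured, 2 rose with TNF in fibrin and 1 in collagen, 4 were higher in fibrin than in collagen with TNF and 2 without it, and 0 were lower in any of these. That was 16.7%, 8.33%, 33.3% and 16.7%, against 3.13%, 6.37%, 8.19% and 10.5% of all genes. Bach1, the repressor that competes with NRF2, was the 1 regulator among the 12 that passed all 4. Levels were 10.30, 10.30 and 10.31 in fibrin TNF, 9.87, 9.77 and 9.71 in fibrin control, 9.56, 9.63 and 9.77 in collagen TNF, and 9.34, 9.12 and 9.37 in collagen control. Its order of groups was that of Slc7a11 and Txnrd1. It rose with TNF by 0.52 ± 0.08 SE in fibrin (adjusted p = 0.00356) and 0.38 ± 0.08 in collagen (adjusted p = 0.0141, but 0.0601 without collagen control replicate 2 and 0.0672 without collagen TNF replicate 3). It was higher in fibrin by 0.65 ± 0.08 with TNF (adjusted p = 0.000228) and 0.51 ± 0.08 without it (adjusted p = 0.00119). Maff, a small MAF partner, rose with TNF in fibrin (0.44 ± 0.10, adjusted p = 0.0349), a call lost with the replicate number as a block (0.0832) and without any 1 of the 6 fibrin arrays but TNF replicate 2 (0.0578 to 0.137).

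Beyond the members, 46 other NRF2-regulated and antioxidant genes were listed and 41 measured. With TNF 6 rose and 1 fell in fibrin (17.1%), and 4 rose and 4 fell in collagen (19.5%). Over all genes the shares were 3.13% and 6.37%. In fibrin 8 were higher and 1 lower than in collagen with TNF (22%), and 7 were higher and 4 lower without it (26.8%). The shares of all genes were 8.19% and 10.5%. Akr1b8, an aldo-keto reductase, rose with TNF in fibrin (0.68 ± 0.09 SE, adjusted p = 0.0013) and was higher in fibrin with TNF (0.96 ± 0.09, adjusted p = 2.51e-05) and without it (0.55 ± 0.09, adjusted p = 0.00149). The heme transporter gene Slc48a1 had levels of 11.33, 11.18 and 11.19 in fibrin TNF, against 10.60, 10.78 and 10.66 in fibrin control, and rose with TNF there (0.55 ± 0.08, adjusted p = 0.00307). Gstm4, a relative of Gstm1, rose with TNF in fibrin as well (0.72 ± 0.12, adjusted p = 0.00448). Against these, Aldh3a1, an aldehyde dehydrogenase, had levels of 6.55, 6.48 and 6.26 in fibrin TNF and 7.62, 7.89 and 7.47 in fibrin control, and fell (-1.23 ± 0.13, adjusted p = 0.000404). In collagen the list's lowest TNF difference, -1.17, was that of Aox1. Its group means were 8.74 in fibrin TNF, 9.37 in fibrin control, 9.26 in collagen TNF and 10.43 in collagen control. Idh1, Gstm2 and Gstt1 fell with TNF in collagen, calls that were lost in some alternative fits.

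The mitochondrial superoxide dismutase Sod2, a textbook target of NF-kB, was lowest in collagen control, as was Sod3. It had levels of 13.34, 13.30 and 13.24 in fibrin TNF, 13.30, 13.19 and 13.08 in fibrin control, 13.09, 13.05 and 13.01 in collagen TNF, and 12.45, 12.36 and 12.18 in collagen control. It rose with TNF in collagen (0.72 ± 0.08 SE, adjusted p = 0.00014), differed by 0.10 in fibrin (95% confidence interval -0.07 to 0.28), and the effect in fibrin minus that in collagen was -0.62 ± 0.11 (adjusted p = 0.0202). That last call missed the threshold without collagen TNF replicate 1 or 2, fibrin control replicate 2 or fibrin TNF replicate 3 (adjusted p = 0.0536 to 0.0577). Its signals lay near the top of the range on every array. Glrx (glutaredoxin) was higher in fibrin control than in collagen control (0.84 ± 0.08, adjusted p = 2.86e-05) and in fibrin TNF than in collagen TNF (0.48 ± 0.08, adjusted p = 0.00349).

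Sources of oxidants were read from 10 measured NADPH oxidase genes of 12 listed. With TNF 0 rose and 1 fell in fibrin, and 1 rose and 1 fell in collagen, while 2 were higher and 2 lower in fibrin with TNF, and 2 higher and 1 lower without it. That was 10%, 20%, 40% and 30%, against 3.13%, 6.37%, 8.19% and 10.5% of all genes. Nox4, the oxidase of vascular smooth muscle and fibroblasts, had levels of 5.78, 5.67 and 5.63 in fibrin TNF, 6.05, 6.52 and 6.30 in fibrin control, 6.30, 6.08 and 6.19 in collagen TNF, and 7.46, 7.42 and 7.62 in collagen control. Like Gpx3, it was highest in collagen control and lowest in fibrin TNF. It fell with TNF in fibrin (-0.59 ± 0.11 SE, adjusted p = 0.01) and in collagen (-1.31 ± 0.11, adjusted p = 1.22e-05), and was lower in fibrin with TNF (-0.50 ± 0.11, adjusted p = 0.0133, but 0.0607 when collagen TNF replicate 1 was left out and 0.054 when fibrin TNF replicate 3 was) and without it (-1.22 ± 0.11, adjusted p = 1.04e-05). The fall was larger in collagen (difference of TNF effects 0.72 ± 0.15, adjusted p = 0.0436), a call lost with the replicate number as a block (0.0781), after median centring (0.053) and without any 1 array but fibrin control replicate 2 (0.059 to 0.114). The phagocyte oxidase gene Cybb had 11.09, 10.87 and 11.08 in collagen TNF, against 10.10, 10.17 and 10.26 in collagen control, and rose there (0.84 ± 0.09, adjusted p = 9.07e-05), while it differed by 0.13 with TNF in fibrin and the TNF effects differed (-0.70 ± 0.13, adjusted p = 0.0166).

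**Figure D4:**
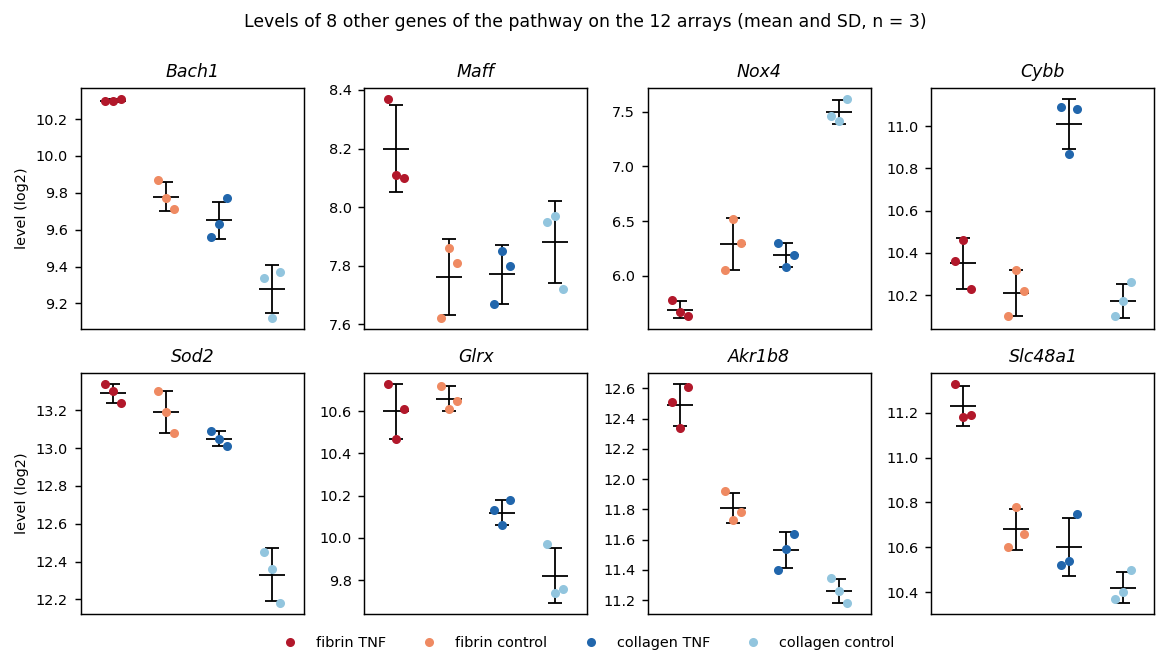
Log2 level (vertical axis, scaled per gene and not starting at 0) of 8 other genes of the pathway on each array, with fibrin TNF, fibrin control, collagen TNF and collagen control from left to right. Points are arrays and black lines the group mean and SD (n = 3). Bach1 and Akr1b8 are highest in fibrin TNF, Nox4 is highest in collagen control, and Cybb stands apart in collagen TNF.

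Of 14 iron-handling genes, all measured, 0 rose and 2 fell with TNF in fibrin, and 6 rose and 0 fell in collagen, while 2 were higher and 2 lower in fibrin with TNF and 6 higher and 1 lower without it. That was 14.3%, 42.9%, 28.6% and 50%, against 3.13%, 6.37%, 8.19% and 10.5% of all genes. Hpx, which encodes the heme-binding plasma protein hemopexin, had the list's largest TNF effect in collagen. Its levels were 11.50, 11.59 and 10.20 in fibrin TNF, 11.90, 11.39 and 9.66 in fibrin control, 11.56, 11.28 and 10.12 in collagen TNF, and 6.48, 6.28 and 5.45 in collagen control. Replicate 3 was the lowest array in each group, and collagen control lay below all other arrays. Hpx rose 30.2-fold with TNF in collagen (4.91 ± 0.56 SE, adjusted p = 0.000148), was higher in fibrin control than in collagen control (4.91 ± 0.56, adjusted p = 7.58e-05), and differed by 0.11 with TNF in fibrin (95% confidence interval -1.09 to 1.32). Lcn2, the siderophore-binding lipocalin, had levels of 8.21, 8.17 and 7.67 in fibrin TNF, 8.56, 8.27 and 8.0 in fibrin control, 6.95, 6.87 and 6.34 in collagen TNF, and 5.54, 5.58 and 5.07 in collagen control. It was 7.36-fold higher in fibrin control than in collagen control (2.88 ± 0.20, adjusted p = 1.23e-06) and rose with TNF in collagen (1.32 ± 0.20, adjusted p = 0.00156). Steap4, a metalloreductase, rose with TNF in collagen (1.08 ± 0.18 SE, adjusted p = 0.003) and fell in fibrin (-1.03 ± 0.18, adjusted p = 0.0076). The iron transporter gene Slc11a2 was higher in fibrin control than in collagen control (0.85 ± 0.08, adjusted p = 2.01e-05) and in fibrin TNF than in collagen TNF (0.67 ± 0.08, adjusted p = 0.00022). The TNF effect was lower in fibrin than in collagen for 5 of the 14 and higher for 0 (35.7%, against 1.24% of all genes). The differences were -4.80 ± 0.79 for Hpx (adjusted p = 0.0107), -2.11 ± 0.26 for Steap4 (adjusted p = 0.00206) and -1.58 ± 0.29 for Lcn2 (adjusted p = 0.0187). The Lcn2 call was lost without collagen TNF replicate 1 or 2 (0.0526 and 0.0555). The other genes of the 5 were Hamp and Hp. The Hamp call was lost without any 1 of 8 arrays (0.055 to 0.0721), and that of Hp without any 1 of 9 (0.0682 to 0.0968).

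The TNF effect itself differed between the gels for 5 members. For 4 of 35 members the TNF effect was larger in fibrin and for 1 it was smaller (14.3% in all), against 1.24% of all genes, 0.37% higher and 0.866% lower. The higher ones were Gclm, Tkt, Gstm1 and Gstp1, and the lower one was Sod3. The median member difference was 0.17, beside 0.01 over all genes. Among the 41 other NRF2-regulated and antioxidant genes, 0 were higher and 2 lower (4.88%), with a median difference of 0.08. Of the 12 other regulators 0 passed. Without the third of genes of lowest mean, 6 members and 294 of 9550 genes passed. Of the 10 members that rose with TNF in fibrin, 3 (Nqo1, Slc7a11 and Txnrd1) also rose in collagen, and of the other 7 the difference itself passed for 3 (Tkt, Gstm1 and Gstp1). For Gsr, Srxn1, Taldo1 and Blvrb it did not pass in the main fit, so an unlike TNF effect in the gels is not shown for them. The difference passed in 3 alternative fits for Gsr and in 1 for Srxn1. The count of 5 fell to 2 or 3 without any 1 of 9 arrays, those other than collagen control replicate 3, collagen TNF replicate 3 and fibrin TNF replicate 2.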

How the data were processed

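RNA of 12 samples, each a pool of 4 to 6 ring cultures, was measured on Affymetrix whole-transcript arrays, 3 per group. The table the authors deposited holds log2 values for 27342 probe sets. That they are log2 was read from the values (1.44 to 14.07), and the background correction and normalization are not given in the sources used here. limma is listed, without a version, per the submitters' processing notes. Depth does not apply to arrays, and their number limits the precision. Values were used as deposited. Of the probe sets, 15097 had 1 gene symbol, 323 several and 11922 none in the platform annotation. Those of 1 gene gave 14324 genes, with the probe set of highest mean for the 499 genes that had several. RefSeq (GRCr8) matched 15067 of these probe sets and changed 0 symbols.

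limma 3.58.1 in R 4.3.3 was fitted to all 12 arrays with a mean per group, and p-values were adjusted by Benjamini-Hochberg over 14324 genes in each of 5 comparisons. The fit was checked on simulated data. All measured members could be named, with genes of other pathway lists named where they had the smallest adjusted p-values of their list or were part of a count given. The members and lists were chosen with earlier results of these data known. Same-numbered arrays within a gel deviated together from their group means (correlations 0.13, 0.14 and 0.14 in collagen and 0.25, 0.14 and 0.16 in fibrin). The numbers may thus pair TNF with control, but among the fits only the replicate block used such pairs. Between gels the correlations of untreated arrays were 0.23, 0.08 and 0.13, and those of TNF arrays 0.05, 0.03 and 0.14. The main fit assumed no pairs, within a gel or between gels. For fibrin against collagen, the replicate block did treat same-numbered arrays of the gels as pairs. Its values for those comparisons rest on that assumption. Alternatives were 8 other settings, among them quantile normalization, median centring, leaving out the third of genes of lowest mean, a trended and robust prior, array weights and a replicate block, and leaving out each array. Pgd is not analysed here.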

Additional observations from a re-analysis of the deposited data

Results flagged for a closer look

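The TNF effect differed between the gels, by the test of the difference itself in the limma fit, for 5 members. The TNF effect in fibrin minus that in collagen was 0.67 on the log2 scale for Gstm1 (adjusted p = 0.0105), 0.63 for Gclm (0.0254), 0.54 for Gstp1 (0.0179), 0.49 for Tkt (0.0269) and -0.77 for Sod3 (0.0396). Those of Gstm1 and Gstp1 passed in every alternative fit run. Those of Gclm, Tkt and Sod3 missed the threshold when 1 of 6, 9 and 9 arrays was left out. That of Gclm also missed it with the replicate number as a block (adjusted p = 0.0525), and that of Sod3 with array weights (0.0721).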

How the results depend on the processing

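Of 46 member calls, 32 held in every alternative run, 14 were lost in some and 0 reversed, while 15 results that did not pass were gained in some. Leaving out 1 array gave 4 to 6 member calls with TNF in collagen (7 with all arrays) and 2 to 6 for the difference of TNF effects (5). Over all genes the left-out arrays gave 568 to 769 calls with TNF in collagen (912), 237 to 539 with TNF in fibrin (448), 727 to 1196 between the gels with TNF (1173) and 103 to 246 for the difference (177). With the 2 compared groups alone, TNF in fibrin gave 230 calls. Without the third of genes of lowest mean the difference gave 294 calls, and with a trended and robust prior 339. Median centring moved the split with TNF in fibrin to 212 higher and 240 lower, against 237 and 211, and quantile normalization that between the gels with TNF to 575 and 565. With the replicate block the member counts were 7 with TNF in collagen, 11 with TNF in fibrin, 10 and 14 between the gels without and with TNF, and 4 for the difference. Over all genes the block gave 1018, 556, 1824, 1484 and 208 calls in the same order, against 912, 448, 1510, 1173 and 177 in the main fit. The calls the block changed among members are given beside them, and it changed no other member call. Of 82 calls among other pathway genes, 52 held in every alternative. With 3 arrays a group the median SE of a member was 0.09 for TNF in collagen and 0.13 for the difference, which limits the changes that could be detected.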
